A study of Mus musculus with 6 samples.

Results

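The creatine and adenylate kinase energy buffer of C2C12 cells was described through 7 genes out of the 20950 entries of the expression table. The genes were chosen by symbol, with their values in these same libraries already known, so their levels and differences are a description and no p-value is given for them. They are the creatine kinases Ckm, Ckb, Ckmt1 and Ckmt2, the adenylate kinase Ak1, the creatine synthesis enzyme Gamt and the creatine transporter Slc6a8. All 7 had a row in the table, and 5 of them, all but Ckmt1 and Ckmt2, reached a mean of 1 FPKM. FPKM is the number of reads on a transcript scaled to transcript length and to sequencing depth. It can be compared between genes, and between libraries up to the effect of further scaling given below.

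C2C12 is a mouse myoblast line whose cells leave the cell cycle and fuse into myotubes when serum is withdrawn. All libraries came from cells grown in DMEM with 10% FBS (fetal bovine serum), and 1 library was made from these growing cells. The other cultures were switched to a differentiation medium holding 2% HS (horse serum) or, in its place, 0.2% FBS. Some of them also received exosomes, the small vesicles precipitated from FBS, in the quantity that 10% FBS holds. A single library each was made of 2% HS, of 2% HS + exosome and of 0.2% FBS, and 2 were made of 0.2% FBS + exosome, called exosome libraries 1 and 2. The line is 1 cell line with no counterpart from primary muscle here, the hours in differentiation medium are not given in the sources used here, and an exosome preparation by precipitation can hold other serum components. The sample titles give the number 2 to the 0.2% FBS control and to exosome library 1. They give 3 to exosome library 2, which has no control of that number. What the numbers stand for is not stated. Nothing in the labels says that the exosome libraries in 0.2% FBS came from separate cultures, so the spread between them may be technical.

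Creatine kinases move a phosphate group between ATP and creatine, and phosphocreatine refills ATP where it is used quickly, as in contracting muscle. Ckm is the cytosolic form of differentiated skeletal muscle and heart, Ckb is the cytosolic form of brain, smooth muscle and myoblasts, and Ckmt1 and Ckmt2 are the ubiquitous and the sarcomeric mitochondrial forms. Ak1 is the cytosolic adenylate kinase of muscle, which makes ATP and AMP from a pair of ADP molecules. Creatine itself is made by Gatm and Gamt and is taken up from the blood by Slc6a8.

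In GENCODE vM21 on GRCm38, the assembly called mm10 by the authors, Ckm lies at chr7:19404776-19422841 on the plus strand and Ckb at chr12:111669361-111672338 on the minus strand. The main coding transcripts of both have 8 exons and 381 codons, the stop codon not counted. Ckmt1 lies at chr2:121357714-121363737 (plus) and Ckmt2 at chr13:91853387-91876885 (minus). Ak1 lies at chr2:32621758-32635058 (plus), Gamt at chr10:80258151-80261012 (minus) and Slc6a8 at chrX:73673150-73682502 (plus). The FPKM values count reads over a whole gene model, so they do not separate exons or UTRs. A transcript of A930016O22Rik on the opposite strand covers 451 bases (16.4%) of the Ckm transcript, and the libraries were stranded but the strand setting of the quantification is not given in the sources used here. Of the 1398 stretches of 75 bases in the Ckb transcript, 188 (13.4%) also occur in transcripts of Gm12892, so the Ckb values carry an uncertainty from how such reads were assigned. A transcript of 1700119I11Rik likewise covers 84 bases (5.65%) of the Ckmt2 transcript on the opposite strand. No shared stretch was found for Ckmt1, Ak1, Gamt or Slc6a8.

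The 250 bases upstream of the RefSeq start are shown for the muscle and the brain isoform, because these isoforms differed by similar amounts with exosomes in 0.2% FBS and by unlike amounts in 2% HS. Capitals mark every match, on either strand, to the E-box CANNTG, to TATAAA, to TATATAA, to CCAAT and to the MEF2 consensus. The Ckm window is chr7:19410844-19411093 on the plus strand of GRCm38.p6, and the longest GENCODE transcript already starts inside it at position 19411025. The Ckb window is chr12:111672339-111672588, printed as the minus strand.
Ckm: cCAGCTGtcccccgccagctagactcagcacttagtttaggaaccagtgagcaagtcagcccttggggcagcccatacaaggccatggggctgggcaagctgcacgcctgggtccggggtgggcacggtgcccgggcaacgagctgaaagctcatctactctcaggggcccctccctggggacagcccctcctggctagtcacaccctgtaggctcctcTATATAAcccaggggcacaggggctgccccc
Ckb: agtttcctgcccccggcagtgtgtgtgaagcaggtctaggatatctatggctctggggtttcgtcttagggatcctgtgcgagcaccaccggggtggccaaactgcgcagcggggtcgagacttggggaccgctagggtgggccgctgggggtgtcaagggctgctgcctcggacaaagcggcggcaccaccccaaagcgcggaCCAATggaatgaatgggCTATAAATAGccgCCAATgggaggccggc
The Ckm window held an E-box match (CAGCTG) whose first base lies 249 bases upstream of the start and a TATATAA match beginning 31 bases upstream. The Ckb window held no E-box match. It held CCAAT matches beginning 46 and 16 bases upstream and a MEF2 match (CTATAAATAG) beginning 29 bases upstream, and the TATAAA match of Ckb lies inside that MEF2 match. Of the 32851 windows of this length in the table, 66.2% held an E-box match, 12.4% TATAAA, 3.04% TATATAA, 33.8% CCAAT and 2.92% the MEF2 consensus. Of the 7 genes, 6 matched the promoter table (all but Slc6a8), and the Gamt window held 3 matches to GGGCGG on its opposite strand, a motif present in 32.7% of all windows. A match is a description of letters, and whether a factor bound there was not measured.

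The libraries were of similar depth. No read counts were used here, so depth was estimated from how the low FPKM values were spaced in 2442 genes that have only 1 transcript in GENCODE, which gave 33700000 to 39550000 reads per library, with 73.2% to 75.4% of the low values within 0.1 of a whole read. On that estimate Ckm rested on 24653 to 82780 reads per library, Ckb on 346 to 1094, Gamt on 731 to 1347, Slc6a8 on 2860 to 4584 and Ak1 on 3473 to 6257. Of the 5 myoblast markers 4 reached 1 FPKM (Myod1 at 83.7 to 110, Cdh15 at 123.05 to 153.5, Des at 543 to 1061 and Myf5 at 4.22 to 12.9), and Pax7 did not (0.0996 to 0.623). Their summed level was 806 to 1314 FPKM. In 0.2% FBS and then in exosome libraries 1 and 2, Des was at 1043, 559 and 543 FPKM, Myf5 at 5.39, 10.1 and 12.9, and Pax7 at 0.0996, 0.521 and 0.623. All 6 markers of differentiating muscle reached 1 FPKM. The summed level of these 6 markers (Myog, Mymk listed as Tmem8c, Myh3, Acta1, Tnnt3 and Actc1) was 5611 FPKM in 10% FBS, so these transcripts were already present in the growing culture. The sum was 11493 in 2% HS, 11414 in 2% HS + exosome, 13652 in 0.2% FBS, and 5835 and 3984 in exosome libraries 1 and 2. Of 4 neuron markers only Stmn2 reached 1 FPKM (11.4 to 52.8) and the others stayed at or below 0.167, no glia, endothelium, adipocyte or liver marker reached 1 FPKM, and of the blood markers only Cd68 did (1.19 to 2.00).

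Ckm was by far the most abundant of the 7 genes, and it followed serum withdrawal and exosomes in 0.2% FBS. Its level was 355.7 FPKM in growing cells, 846.6 in 2% HS, 674.9 in 2% HS + exosome, 734.2 in 0.2% FBS, and 392.3 and 287.7 in exosome libraries 1 and 2. The 3 libraries of 2% HS, 2% HS + exosome and 0.2% FBS were high, and the growing cells and both exosome libraries in 0.2% FBS were low, with no value in between. On the log2(FPKM + 1) scale, used for every difference below, Ckm was 1.04 higher in 0.2% FBS and 1.25 higher in 2% HS than in growing cells. With exosomes in 0.2% FBS it was lower by a mean log2 difference of -1.13 ± 0.32 (SD, n = 2), which is 46.3% of the control level, with -0.90 in exosome library 1 and -1.35 in exosome library 2. Each SD, here and below, is the spread between the 2 exosome libraries only and holds no error of the single control library. Ckm in exosome-treated 0.2% FBS differed from growing cells by -0.08 ± 0.32 (SD, n = 2), less than the spread between the exosome libraries. With exosomes in 2% HS its difference was -0.33 (1 library against 1), at 79.7% of the control. The summed muscle markers were lower, like Ckm, in both exosome libraries of 0.2% FBS, and their part in the Ckm difference was not tested. In 2% HS the sum was nearly level while Ckm was lower, and single markers lay on either side: Myog was at 564 FPKM in 2% HS and 720 in 2% HS + exosome, and Acta1 at 4500 and 4077. In bulk RNA, fewer differentiated cells and less of a transcript per cell cannot be told apart, here and for each gene below.

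**Figure D1:**
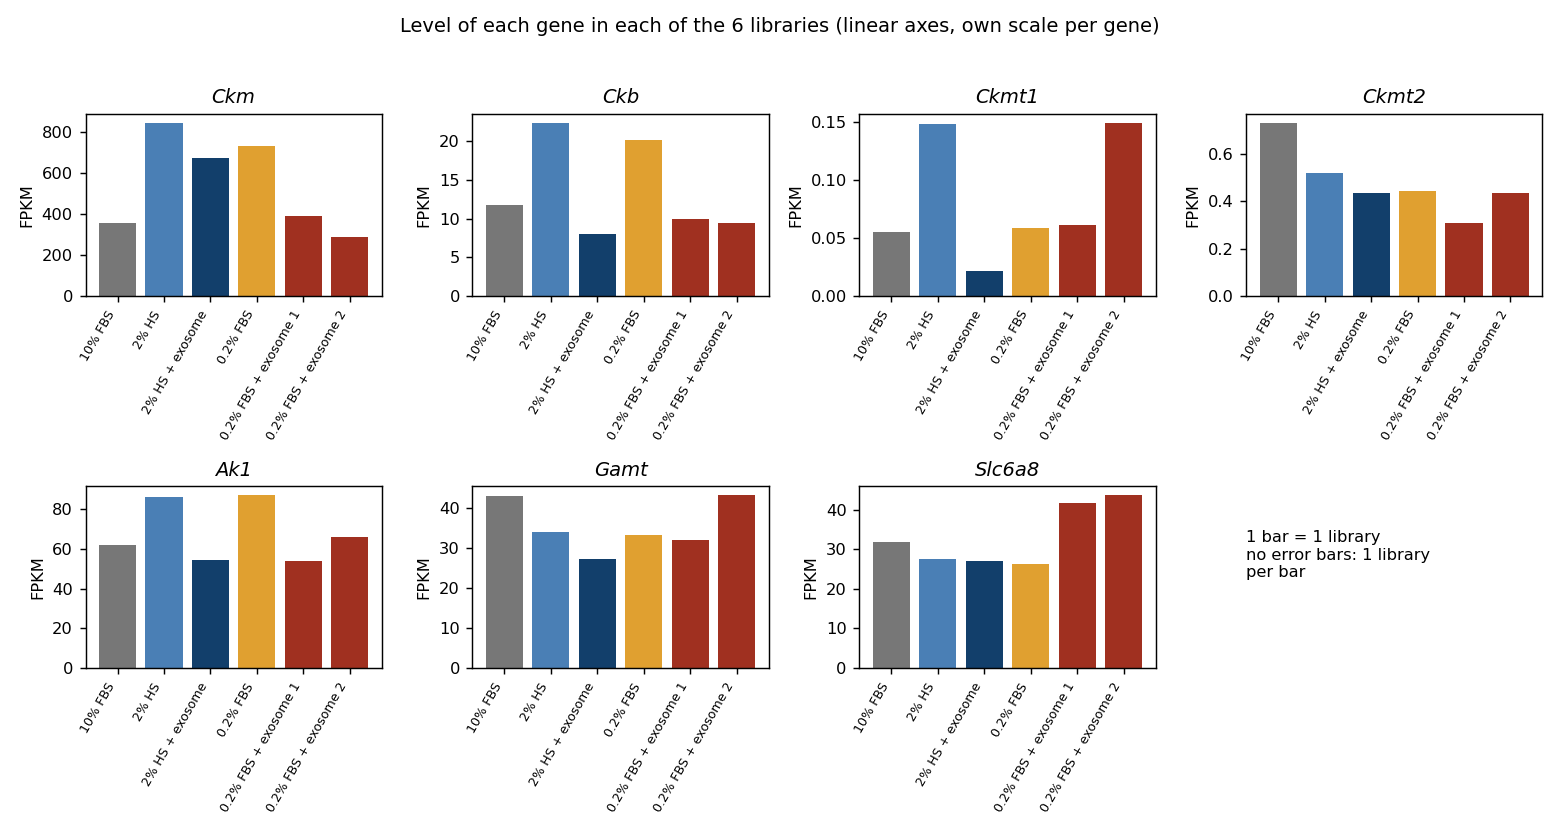
FPKM (vertical axes, linear, one scale per gene) of the 7 genes in the 6 libraries (horizontal axes), with 1 bar per library. Ckm rises from 355.7 FPKM in 10% FBS to 734.2 in 0.2% FBS and is at 392.3 and 287.7 with exosomes, Ckb is lowest (8.02) in 2% HS + exosome, and Slc6a8 is highest (41.6 and 43.7) in both exosome libraries of 0.2% FBS.

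Ckb, the brain isoform, was lower with exosomes in both media, and in 2% HS its difference was the largest of the 7 genes. Its level was 11.7 FPKM in growing cells, 22.3 in 2% HS, 8.02 in 2% HS + exosome, 20.1 in 0.2% FBS, and 9.91 and 9.44 in exosome libraries 1 and 2. All 3 exosome-treated libraries lay below the growing cells and below both differentiation controls. Ckb was 0.74 higher in 0.2% FBS and 0.88 higher in 2% HS than in growing cells. With exosomes in 0.2% FBS the difference was -0.99 ± 0.046 (SD, n = 2), with -0.95 and -1.02 in the separate libraries, and the level was 48.0% of the control. The mean in 0.2% FBS was rank 247 from the lowest among the 10731 genes averaging 1 FPKM or more. In 2% HS the Ckb difference was -1.37, at 35.9% of the control and rank 14 from the lowest. The summed muscle markers were 11493 and 11414 FPKM in the same pair of libraries, and the summed myoblast markers were 1314 and 1054. Of the latter, Des was at 1061 and 805 FPKM, Cdh15 at 150 and 153 and Myf5 at 6.50 and 4.22. In growing cells the myoblast sum was 871 FPKM, with Des at 630 and Myf5 at 12.2, so the sum does not single out growing cells. The part of these markers in the Ckb difference was not tested. Against growing cells Ckb was -0.25 ± 0.046 (SD, n = 2) with exosomes in 0.2% FBS and -0.49 with exosomes in 2% HS.

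Because Ckm and Ckb differed by similar amounts in 0.2% FBS and by unlike amounts in 2% HS, their ratio changed in 1 library. The Ckm to Ckb ratio of FPKM was 30.4 in growing cells, 37.9 in 2% HS, 36.5 in 0.2% FBS, and 39.6 and 30.5 in exosome libraries 1 and 2. In 2% HS + exosome it was 84.2. The other 5 libraries lay between 30.4 and 39.6, so only this library stood apart. The log2 ratio differed with exosomes by 1.15 in 2% HS and by -0.07 ± 0.27 (SD, n = 2) in 0.2% FBS, where exosome library 1 gave 0.12 and exosome library 2 gave -0.26. Ckb made up 1.17% of the summed FPKM of the 4 creatine kinases in 2% HS + exosome and 2.46% to 3.18% in the others, and Ckm made up 96.6% to 98.8% in every library. The 2% HS value rests on 1 exosome library and 1 control, so the difference between media has no replicate check on that side.

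**Figure D2:**
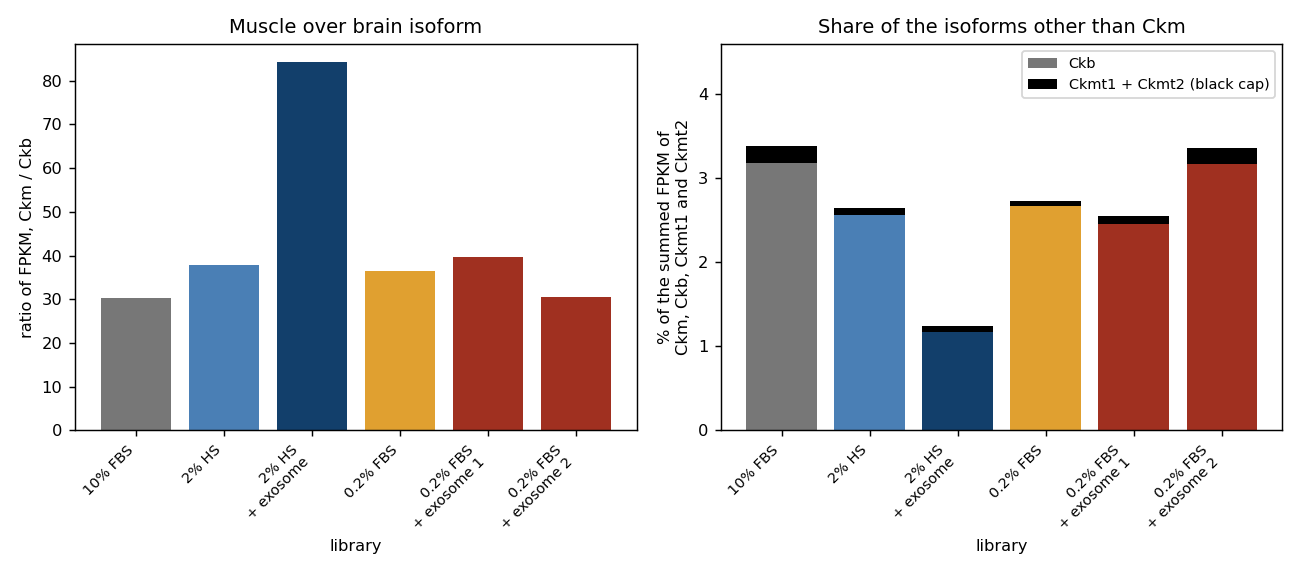
Left, ratio of Ckm to Ckb FPKM in each library; right, percentage of the summed FPKM of the 4 creatine kinases held by Ckb (coloured) and by Ckmt1 and Ckmt2 together (black cap), with 1 bar per library. The ratio is 84.2 in 2% HS + exosome and 30.4 to 39.6 in the other 5, and the mitochondrial forms hold at most 0.213%.

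The mitochondrial creatine kinases were close to absent in these cells at this depth. Ckmt1 ranged from 0.0211 to 0.149 FPKM, which corresponds to an estimated 3, 8, 1, 3, 3 and 7 reads in 10% FBS, 2% HS, 2% HS + exosome, 0.2% FBS and exosome libraries 1 and 2. The exact Poisson 95% intervals of 1 read (0.0253 to 5.57) and of 8 reads (3.45 to 15.8) overlap, and no difference is read from so few reads. Ckmt2 was at 0.730 FPKM in growing cells, 0.521 in 2% HS, 0.434 in 2% HS + exosome, 0.442 in 0.2% FBS, and 0.309 and 0.437 in exosome libraries 1 and 2, and it was highest in growing cells. These values stand for an estimated 37, 26, 19, 21, 14 and 19 reads, and among them only the intervals of 37 reads (26.1 to 51.0) and 14 reads (7.65 to 23.5) lie apart from each other. These intervals cover counting error only, since reads without molecular identifiers are not independent molecules. With exosomes Ckmt2 differed by -0.07 ± 0.095 (SD, n = 2) in 0.2% FBS and -0.09 in 2% HS, and together the mitochondrial forms held 0.0663% to 0.213% of the summed creatine kinase FPKM.

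Ak1 was lower with exosomes by a similar amount in both media. Its level was 61.8 FPKM in growing cells, 86.3 in 2% HS, 54.2 in 2% HS + exosome, 87.2 in 0.2% FBS, and 53.9 and 66.2 in exosome libraries 1 and 2. Both differentiation controls were high, and the exosome-treated libraries and the growing cells were low without overlap. The difference with exosomes was -0.54 ± 0.21 (SD, n = 2) in 0.2% FBS, with -0.69 and -0.39 in the separate libraries. The mean in 0.2% FBS was rank 671 from the lowest of 10731 genes. In 2% HS the Ak1 difference was -0.66, rank 108 from the lowest, with Ak1 at 62.9% of the control. Against growing cells Ak1 was 0.49 higher in 0.2% FBS and 0.48 higher in 2% HS, and it was -0.05 ± 0.21 (SD, n = 2) with exosomes in 0.2% FBS.

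Of the genes of creatine supply, Slc6a8 was at 31.7 FPKM in growing cells, 27.5 in 2% HS, 27.0 in 2% HS + exosome, 26.4 in 0.2% FBS, and 41.6 and 43.7 in exosome libraries 1 and 2. The exosome libraries of 0.2% FBS were the highest of all 6, and the others lay between 26.4 and 31.7. Its difference with exosomes was 0.67 ± 0.049 (SD, n = 2) in 0.2% FBS, at 162% of the control, and -0.02 in 2% HS.

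Gamt, the second enzyme of creatine synthesis, was at 43.2 FPKM in growing cells, 34.1 in 2% HS, 27.3 in 2% HS + exosome, 33.3 in 0.2% FBS, and 31.9 and 43.3 in exosome libraries 1 and 2. The exosome libraries of 0.2% FBS lay on either side of their control, with log2 differences of -0.06 and 0.37 and a mean of 0.15 ± 0.30 (SD, n = 2). In 2% HS the difference was -0.31. Against growing cells Gamt was -0.36 in 0.2% FBS and -0.33 in 2% HS.

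Past a log2 difference of 1 in size, few of the 7 genes were found in any comparison. With exosomes in 0.2% FBS 1 gene (Ckm) was below -1 on the mean, where 1.16% of all entries were, none was above 1 (0.931% of all entries), and none was below -1 in each exosome library (0.835%), since Ckm missed it in exosome library 1 and Ckb was at -0.95 there. With exosomes in 2% HS 1 gene (Ckb) was below -1 against 0.158% of all entries, and none was above 1 (0.186%). Ckm alone of the 7 was above 1 in 0.2% FBS against growing cells (0.931% of all entries) and in 2% HS against growing cells (0.945%), and none was below -1 there (0.368% and 0.267%). None passed in exosome-treated 0.2% FBS against growing cells, where 0.0477% of all entries were below -1 (10, or 26 without exosome library 2) and 0.263% above 1 (55, or 107 without exosome library 1). After scaling these were 16 and 42, and with exosomes in 0.2% FBS 290 entries were below -1 and 136 above 1, in place of 244 and 195. Ckm, Ckb and Ak1, 3 of the 5 genes averaging 1 FPKM or more, were lower by any amount in all 3 exosome-treated libraries than in the control of the same medium, as were 15.5% of all genes at that level, and so was Ckmt2 below it. All 7 genes were lower as deposited in 2% HS + exosome than in 2% HS, beside 58.7% of the 10731 genes, with a median of -0.31, beside -0.04 over the 10731 genes. After scaling to the 75th percentile Slc6a8 was at 0.01 there, and Ckmt1 and Ckmt2 lay under 1 FPKM throughout. In 0.2% FBS the median of the 7 as deposited was -0.07, beside 0.14 over the 10731 genes, and the latter was 0.04 after scaling. The genes were chosen with these values known, so nothing particular to them is read from the counts.

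**Figure D3:**
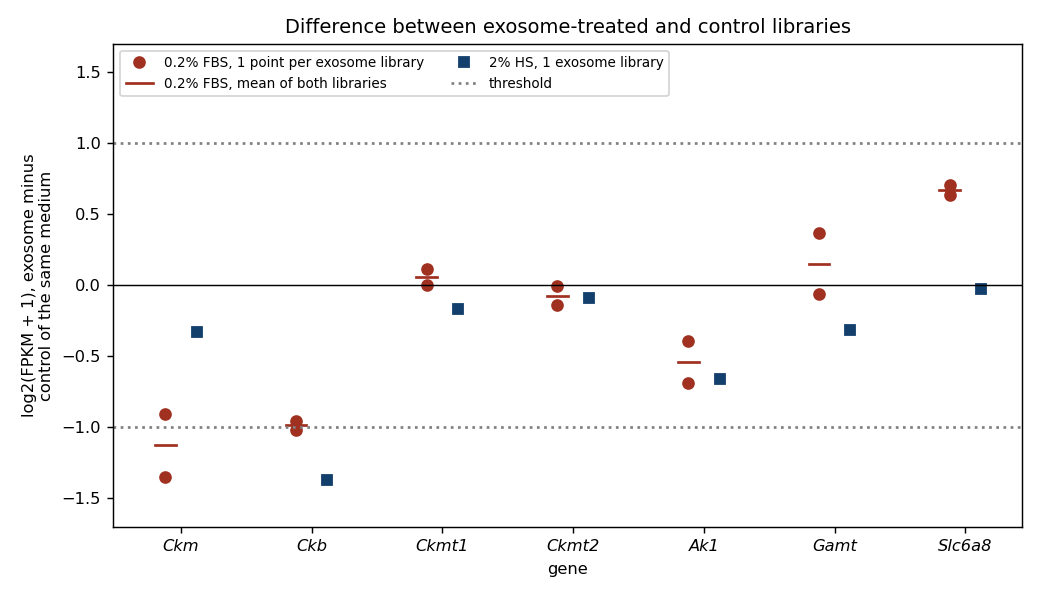
Difference in log2(FPKM + 1) between exosome-treated libraries and the control of the same medium (vertical axis) for each gene (horizontal axis); red points are the 2 exosome libraries of 0.2% FBS with a red line at their mean, and blue squares are the single exosome library of 2% HS. Ckb and Ak1 lie below 0 in all 3, Ckm is at -1.13 in 0.2% FBS and -0.33 in 2% HS, and Slc6a8 is at 0.67 and -0.02.

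The profiles over the 6 libraries were compared by the root mean square difference of log2(FPKM + 1) values centred on each gene's mean, as a description over points that share cells and libraries. The names depend on that measure: with Pearson's correlation in its place, 0 of the 3 nearest genes were shared for Ckm, Ckmt1, Ak1 and Gamt, 1 for Ckb and Slc6a8, and 2 for Ckmt2. The genes nearest to Ckm were Best1 (0.065), Anxa3 (0.085) and Hrc (0.088), the last a calcium-binding protein of the sarcoplasmic reticulum. Those nearest to Ckb were Casq1 (0.169), the calcium store protein calsequestrin, Herc3 (0.173) and Mss51 (0.177). Mss51 was at 11.0 FPKM in 2% HS and 2.49 in 2% HS + exosome, and Casq1 was at 36.6 and 19.5. Nearest to Ak1 were Idh3a (0.067), a subunit of the mitochondrial isocitrate dehydrogenase, Usp20 (0.090) and Tubb4b (0.093). Nearest to Gamt were Hadh (0.057), Ccdc34 (0.058) and Tbca (0.061), and nearest to Slc6a8 were Smim14 (0.022), Lrp5 (0.029) and Tbc1d9b (0.032). For Ckmt2 they were Pbrm1, Ireb2 and Sestd1, but its profile, like that of Ckmt1, is nearly flat on this scale. Within the 7 genes Ckb was nearer to Ak1 (0.278) than to Ckm (0.480), and Ckm was nearer to Ckb than to Slc6a8 (0.849).

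The other genes of the pathway came from 7 lists of 43 genes, of which 42 were found and 33 averaged 1 FPKM or more. These genes were tested with limma, a linear model over all 10731 such genes with a mean per condition, whose only replicated condition is 0.2% FBS + exosome, so the single libraries are assumed to vary like it. The control of 0.2% FBS is 1 library, and where the spread between the exosome libraries is only technical, the calls below compare these libraries and not the conditions. These lists too were set up with earlier results of these libraries known, so the p-values describe each gene within the whole table and are no independent support. With exosomes in 0.2% FBS 5 of the 33 fell and 3 rose at an adjusted p under 0.05, beside 4.32% of all genes that fell (464) and 8.2% that rose (880). After scaling to the 75th percentile 803 fell and 855 rose over all genes, and 5 and 3 in the lists. The calls of Prkag3, Nme3 and Ampd2 were lost when genes down to a mean of 0.1 FPKM were tested (limma adjusted p = 0.0825, 0.0782 and 0.0538), and the other 5 held. The median difference of the 33 as deposited was 0.07, beside 0.14 over all genes, and the latter was 0.04 after scaling. In 2% HS no list gene was past a log2 difference of 1, and with exosomes 19 of the 33 were below 0 and 14 above, a share near the 58.7% of all 10731 genes below 0.

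Gatm, the first and rate-limiting enzyme of creatine synthesis, fell with exosomes in 0.2% FBS. It was at 61.2 FPKM in growing cells, 61.8 in 2% HS, 78.7 in 2% HS + exosome, 74.2 in 0.2% FBS, and 40.6 and 38.7 in exosome libraries 1 and 2, the lowest of the 6. Its log2 difference in 0.2% FBS was -0.89 (SE 0.17, limma adjusted p = 0.0202), and in 2% HS it was 0.34. The Gatm to Gamt ratio of FPKM was 2.22 in 0.2% FBS and 1.27 and 0.894 with exosomes there, while it was 1.81 in 2% HS and 2.88 in 2% HS + exosome. The other gene of this list, the creatine exporter Slc16a12, was at or below 0.0369 FPKM in every library.

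The purine nucleotide cycle turns AMP into IMP and back and so removes the AMP that adenylate kinase makes. Its genes changed in both directions, with 2 of 6 lower and 2 higher with exosomes in 0.2% FBS. Adssl1, the muscle form of adenylosuccinate synthase, fell from 40.4 FPKM to 19.9 and 23.0 (log2 difference -0.89, limma adjusted p = 0.0190), and Ampd1, the muscle AMP deaminase, fell from 1.73 to 0.582 and 0.524 (-0.81, adjusted p = 0.0311). Ampd2 rose from 11.8 to 19.9 and 19.6 (0.70, adjusted p = 0.0268), and Ampd3, the erythrocyte form, rose from 11.6 to 22.4 and 27.4 (1.03, adjusted p = 0.0145). The 0.2% FBS control was the lowest library for Ampd3, which was at 23.7 FPKM in growing cells, 22.0 in 2% HS and 18.9 in 2% HS + exosome, so its rise and its difference between media rest on that 1 library. Adss, the other synthase, had 22.3 FPKM without and 29.6 and 33.2 FPKM with exosomes (0.47), and did not pass (adjusted p = 0.0950). In 2% HS Adssl1 differed by -0.34, Ampd1 by 0.04, Ampd2 by -0.25 and Ampd3 by -0.21.

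AMP-activated protein kinase senses the AMP that accumulates when ATP runs low. Of the 8 genes of its subunits and its activator Stk11, 2 fell and none rose with exosomes in 0.2% FBS. Prkag3, the gamma subunit of glycolytic muscle, fell from 29.5 FPKM to 17.5 and 9.89 (log2 difference -1.10, limma adjusted p = 0.0383), and Prkaa2, a catalytic subunit abundant in muscle, fell from 3.66 to 1.53 and 1.20 (-0.98, adjusted p = 0.0190). In 2% HS they differed by -0.14 and -0.09. Prkaa1, the other catalytic subunit, had 24.4 FPKM without and 26.3 and 32.0 FPKM with exosomes.

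Among the nucleoside diphosphate kinases, which pass phosphate from ATP to other nucleotides, 1 of 6 passed. Nme3 rose from 7.27 FPKM to 11.1 and 12.4 with exosomes in 0.2% FBS (log2 difference 0.63, limma adjusted p = 0.0424). The abundant Nme2 was at 596 FPKM and at 424 and 506 with exosomes, and Nme1 was at 86.1 and at 71.6 and 86.0. None of the 3 other adenylate kinases measured above 1 FPKM passed, and the mitochondrial Ak3 was at 19.9 FPKM in 0.2% FBS, then 21.2 and 21.8 in the exosome libraries. None of the 5 genes of mitochondrial adenine nucleotide exchange passed, and the ADP/ATP carriers Slc25a4 (435 FPKM, then 371 and 480) and Slc25a5 (382, then 278 and 351) lay on either side of or below their control. Vdac3 of this list was at 118 FPKM, then 93.2 and 93.8, while in 2% HS it was at 121 FPKM without and 176 with exosomes (0.54). None of the 4 measured regulators of mitochondrial biogenesis passed, among them Esrra (18.3 FPKM, then 16.7 and 23.9) and Tfam (11.0, then 10.3 and 10.7).

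**Figure D4:**
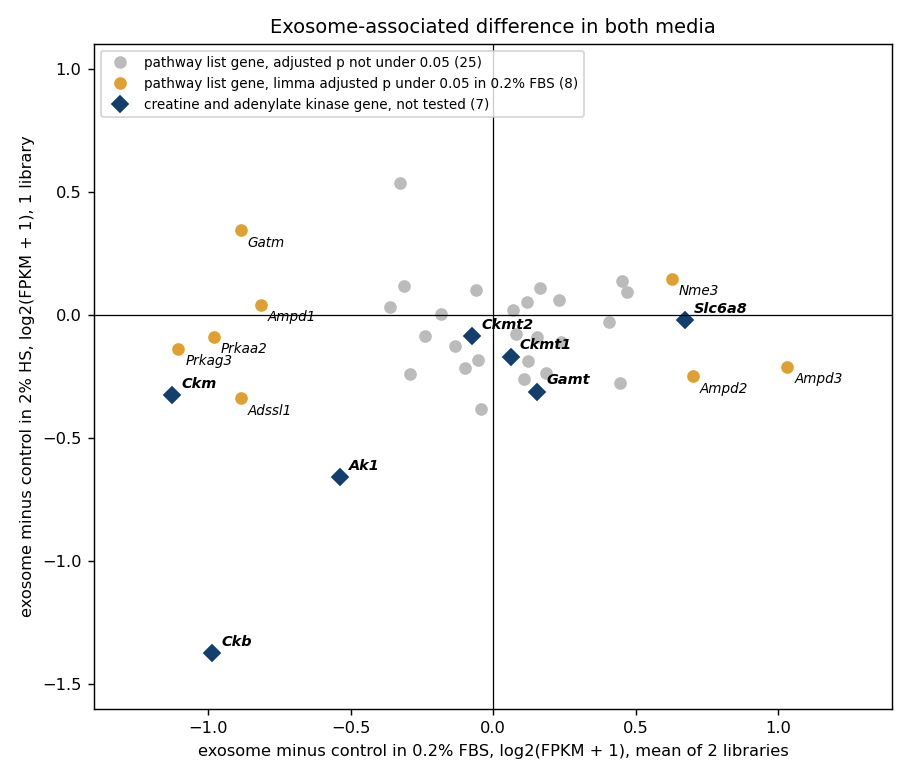
Exosome minus control in 0.2% FBS (horizontal axis, mean of 2 libraries) against exosome minus control in 2% HS (vertical axis, 1 library), both as log2(FPKM + 1), for the 7 genes (blue diamonds) and the 33 pathway list genes (circles, orange where the limma adjusted p in 0.2% FBS was under 0.05). Ckb (-0.99 and -1.37) and Ak1 (-0.54 and -0.66) lie low on both axes, and Gatm (-0.89 and 0.34) and Ampd3 (1.03 and -0.21) lie on opposite sides of 0.

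The test of whether the exosome difference was unlike in the 2 media passed for none of the 33 list genes (limma, adjusted p under 0.05). By the same test and cut, 0.867% of all genes were called lower and 0.298% higher. At an unadjusted p under 0.05 (limma) there were 7 of the 33 list genes, beside 2091 of all 10731 genes. The lowest adjusted p in the lists was 0.0700, for Gatm and for Ampd3, and under the alternatives it ranged from 0.0209 to 0.126 for Gatm and from 0.0408 to 0.139 for Ampd3.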

How the data were processed

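RNA of C2C12 cells was sequenced as TruSeq stranded mRNA libraries and read from 1 end over 75 bases. Trimming by the authors used cutadapt 1.9.1, and they mapped the reads to mm10 with TopHat2 2.1.0 and computed with Cufflinks the FPKM values that they deposited as 1 table with 1 column per library. The gene annotation and the strand setting are not given in the sources used here, and for the RNA the labels name a miRNeasy kit while the methods name an RNeasy kit. Groups were taken from the labels.

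Differences were taken as log2(FPKM + 1), with the study's threshold of 1, and they understate changes of low genes. Counts used all 20950 entries. The 7 genes and the pathway and marker lists were chosen with earlier results of these data known. The 7 genes were described without a test. List genes were tested with limma 3.58.1, not as independent support (trend, 1 mean per condition, 1 residual degree of freedom, Benjamini-Hochberg over 10731 genes averaging 1 FPKM or more). Named are the 7 genes, the 3 genes nearest to each, and the list genes past the threshold or, where none passed, the highest 2 of a list. List genes passing limma, Adss, Prkaa1, Vdac3 and Nme7 were added after their values were seen. Some genes that this rule names are not reported here. Depth and reads were estimated assuming 200-base fragments. Promoter windows are from RefSeq (GRCm38.p6). Alternatives were a pseudocount of 0.1, a floor of 1 FPKM, scaling to the 75th percentile, a minimum mean of 0.1 FPKM and leaving out each exosome library, and Pearson's correlation for the nearest genes. Analysis used Python 3.11.15 and R 4.3.3.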

Additional observations from a re-analysis of the deposited data

Results flagged for a closer look

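For several genes the log2 difference with exosomes had one sign in both libraries of 0.2% FBS and the other in the 1 library of 2% HS. Gatm, Ampd1, Ampd2 and Ampd3 were called by limma in 0.2% FBS, and no list gene was called for the difference between media, except Gatm and Ampd3 after scaling to the 75th percentile. For Slc6a8 the log2 difference in 0.2% FBS minus that in 2% HS was 0.69, and this was not tested; its 2% HS value was -0.02 and became 0.01 after scaling to the 75th percentile. For Ckmt1 it was 0.23, not tested, and it rests on an estimated 1 to 8 reads per library. For Gatm it was -1.23 and for Ampd3 1.24, and both had a limma adjusted p of 0.0700. For Ampd2 it was 0.95 (limma adjusted p = 0.0912) and for Ampd1 -0.85 (0.172). For Vdac3 it was -0.86 (limma adjusted p = 0.180) and for Nme7 0.72 (0.220). For other named list genes it was 0.35 for Prkaa1 (limma adjusted p = 0.512), 0.37 for Ak3 (0.431), -0.39 for Nme2 (0.706) and -0.16 for Tfam (0.768). Further list genes with opposite signs and differences smaller than that of Nme7 are not listed. No group had 4 libraries, so no library could be singled out within a group.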

How the results depend on the processing

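Without a second library in 4 of 5 conditions, single-library differences carry no error. The count of the 7 genes below -1 with exosomes in 0.2% FBS was 1, and Ckb joined Ckm to make 2 with a pseudocount of 0.1, with a floor of 1 FPKM and after scaling to the 75th percentile; without 1 exosome library it was 0 (without exosome library 2) to 2 (without exosome library 1). In 2% HS it rose from 1 to 2 with a pseudocount of 0.1, through Ckmt1, at 1 and 8 reads. Of 133 values of the 7 genes under alternatives 118 stayed on their side of 0. Of the other 15, 10 are Ckmt1 or Ckmt2 set to 0 by the floor. The rest are Gamt in 0.2% FBS without exosome library 2 (-0.06), Slc6a8 in 2% HS after scaling (0.01), and, against growing cells with exosomes in 0.2% FBS, Ckm without exosome library 2 (0.14), Ak1 (0.10) and Gamt (0.0055) without exosome library 1. The log2 ratio of Ckm to Ckb in 0.2% FBS was between -0.26 and 0.12 without 1 exosome library.

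With a minimum mean of 0.1 FPKM limma called 605 genes in 0.2% FBS in place of 1344, and in the lists 4 lower and 1 higher in place of 5 and 3 (Ampd2, Nme3 and Prkag3 were lost). For the difference between media it called 125 genes, 5 with that minimum and 377 after scaling, when 1 list gene was called lower (Gatm) and 1 higher (Ampd3). Counts over all entries grew with a pseudocount of 0.1, in 0.2% FBS from 244 to 506 lower and from 195 to 547 higher, and in 2% HS from 33 to 151 and from 39 to 196. Against growing cells they grew from 77 to 396 lower and 195 to 434 higher in 0.2% FBS, from 56 to 298 and 198 to 435 in 2% HS, and from 10 to 122 and 55 to 189 with exosomes in 0.2% FBS. The floor of 1 FPKM gave, in the order of these comparisons and where it moved a count by over 1.5 times, 350 higher, 54 lower and 70 higher, 190 lower, 120 lower, and 48 lower and 94 higher. Without exosome library 1 the count above 1 in 0.2% FBS was 319 in place of 195. With 1 exosome library left out limma has no residual degrees of freedom, so it was not run. No paired analysis was possible because the groups compared share fewer than 2 replicate numbers.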
